A study of Gallus gallus with 2 samples.

Results

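The stretch of chicken chromosome 3 from 41230001 to 41630000 is a domain of 400 kb, from 41.23 to 41.63 Mb, inside the captured DACT2-SMOC2 locus. Coordinates are those of the deposited lists, for which the submitters' processing notes name the build galGal5. Its ends were placed at minima of the insulation score of the same lists that are described here, so the weak contact across its ends is a description and is not tested. Members are the listed pairs of restriction fragments whose midpoints both lie in the domain and which are not neighbours along the chromosome. The interzone list held 7671 such pairs of 94492 in the whole locus (8.12%), and the phalange list held 5058 of 65117 (7.77%). Counted over both lists there were 10953 distinct member pairs of 146631, and 1776 of them were listed in both.

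Targeted chromatin capture (T2C) freezes contacts by cross-linking, cuts the chromatin with a restriction enzyme (here ApoI), ligates ends that lie close together and enriches the products of a single locus with baits before sequencing. The interzone is the band of cells where a synovial joint will form, and the phalange is the neighbouring skeletal element of the same digit. Both tissues were dissected from digit 3 of the hindlimb of White Leghorn chick embryos at stage HH32, after 7.5 days of incubation. Each library came from 1 pool of 100 specimens, so there was 1 library per tissue, no replicate error can be given, and every difference below is between 2 libraries rather than 2 tissues. A pooled dissection holds every cell type of the dissected piece, and a contact in few cells cannot be told apart from a rare contact in all of them. Contact lists hold no expression values, so the tissue labels were not checked against marker genes.

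Chromosomes fold into domains within which sequences meet more often than they meet sequences outside, and the borders between domains appear as minima of the contact frequency across them. Such domains are known to limit which enhancers can reach which promoters, and contacts between the ends of a domain often appear as a corner or a stripe in contact maps. SMOC2 encodes a secreted matricellular calcium-binding protein of the SPARC family, and DACT2 encodes an intracellular antagonist of the DACT family that acts on Wnt and transforming growth factor beta signalling. In the GRCg7b annotation THBS2 lies beside SMOC2, FRMD1 lies beside DACT2, and 8 protein-coding gene models lie between SMOC2 and DACT2. The genes of the domain itself are not given here, because no galGal5 annotation was used.

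The domain was cut into 981 of the 6569 fragments of the locus (14.9%). Of its 980 neighbouring fragments, 976 were separated by 6 bases, the length of the ApoI site. Fragments were denser than elsewhere, with 24.5 per 10 kb against 18.3 in the rest of the locus, and they were shorter, with a median length of 265 bp against 340.5 bp. The shortest fragment was 1 bp long and the longest 3606 bp, and 25.7% were under 100 bp, against 19.8% in the rest of the locus. The domain thus offered many fragment ends, a large share of them on very short pieces.

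Fragment length and the number of distant partners went together. A partner is a fragment with which a pair was listed, and it was called distant at 20 kb or more between midpoints. In the interzone list, the 252 fragments under 100 bp had on average 0.786 distant partners inside the domain, the 378 of 100 to 400 bp had 6.80, the 214 of 400 to 800 bp had 11.8, and the 137 of 800 bp or more had 16.2. In the phalange list the same length classes had 0.302, 3.02, 6.08 and 9.43. Spearman's correlation of length and partner number, across the 981 fragments of a library, was 0.816 for the interzone and 0.804 for the phalange. These fragments share a library and are not independent replicates, so no p-value is attached. A distant partner was missing for 170 fragments (17.3%) in the interzone list and 249 (25.4%) in the phalange list.

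**Figure D1:**
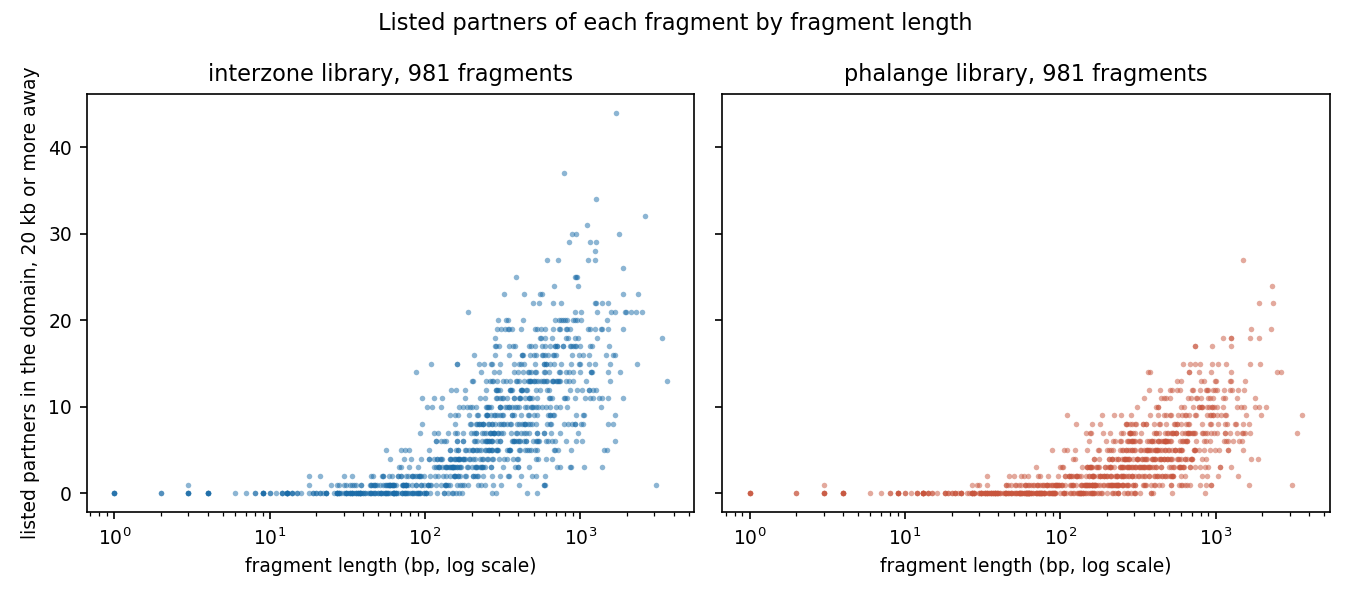
Each point is 1 of the 981 fragments of the domain, with its length in bp on a log axis and its number of listed partners 20 kb or more away inside the domain on a linear axis, for the interzone (left) and the phalange (right). Fragments under 100 bp lie near 0 in both libraries, and the highest values are 44 partners for the interzone and 27 for the phalange.

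Because of this relation, the number of listed pairs was set against several expectations. The first, from distance alone, is the share of possible fragment pairs listed over the whole locus at the same distance, multiplied by the possible pairs of the domain. The second, added after the data were seen, also weights each fragment by its length class and is called length-matched below. A further pair of expectations used pairs of 10 kb bins whatever their number of fragments, and each fragment's own total of partners over the locus. At a value of 1 the listed and the expected number are equal. Intervals are 95% exact Poisson intervals for a library and 95% exact conditional binomial intervals for a ratio of libraries; they treat listed pairs as independent and cover counting error only.

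At 20 kb or more, the domain held 3756 listed pairs for the interzone and 1905 for the phalange. Against distance alone this was 0.835 of the expectation in the interzone (0.809 to 0.863) and 0.751 in the phalange (0.717 to 0.785). Length-matched, the values were 1.07 (1.03 to 1.10) and 1.02 (0.975 to 1.07). Per bin pair they were 1.35 and 1.21, and with each fragment's own total they were 0.902 and 0.928. Whether the interior of the domain counts as sparse or dense therefore depended on the expectation. Leaving out fragments under 200 bp gave 0.944 and 0.852 against distance alone, still below 1.

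The interzone value was 1.11 times the phalange value against distance alone (1.05 to 1.18). In the 6 other parts of the locus this ratio ran from 0.908 to 1.07, so the domain had the highest ratio, although its interval overlapped that of the next, the right flank of the locus (1.02 to 1.12). This rank held per bin pair but not otherwise: length-matched, the right flank was higher at 1.07, and with each fragment's own total the domain was the lowest of the 7 parts. The ratio was 1.05 length-matched (0.990 to 1.11), 1.12 per bin pair, and 0.971 with each fragment's own total (0.919 to 1.03), where it lay on the other side of 1. With 1 library per tissue, a difference of this size cannot be told apart from a difference between 2 libraries of the same tissue.

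The signal of a listed pair is the value the authors gave it. At 20 kb or more, its median differed less between the libraries than the number of pairs did. The median was 0.000268 for the interzone and 0.000262 for the phalange. The medians in the rest of the locus at 20 to 400 kb were close to these, at 0.000258 and 0.000249. The highest values in the domain were 0.00358 and 0.00262. Over all distances the member pairs summed to a signal of 11.5 for the interzone and 15.5 for the phalange, and pairs at 20 kb or more made up 10.9% and 4.0% of these sums although they made up 49.0% and 37.7% of the listed pairs. Pairs under 2 kb carried most of the sum, with a signal of 9.34 from 1753 pairs for the interzone and 14.2 from 1842 pairs for the phalange. Under 2 kb the median signal, 0.00112 for the interzone and 0.00149 for the phalange, differed more than the number of pairs did.

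Listed pairs relative to the expectation were higher at longer distances inside the domain. Against distance alone, the interzone values were 0.736 at 20 to 50 kb, 0.780 at 50 to 100 kb, 0.878 at 100 to 200 kb, 0.995 at 200 to 300 kb and 1.26 at 300 to 400 kb (1.09 to 1.45). The phalange values were 0.641, 0.674, 0.852, 0.819 and 1.09 (0.888 to 1.32). The order of the classes was the same in both libraries except that 100 to 200 kb stood above 200 to 300 kb in the phalange. Length-matched values were higher at every distance, from 0.942 at 20 to 50 kb to 1.65 at 300 to 400 kb in the interzone (1.42 to 1.90) and from 0.871 to 1.54 in the phalange (1.26 to 1.86). At 300 to 400 kb, where only fragments near opposite ends can pair, 195 pairs were listed for the interzone and 104 for the phalange.

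**Figure D2:**
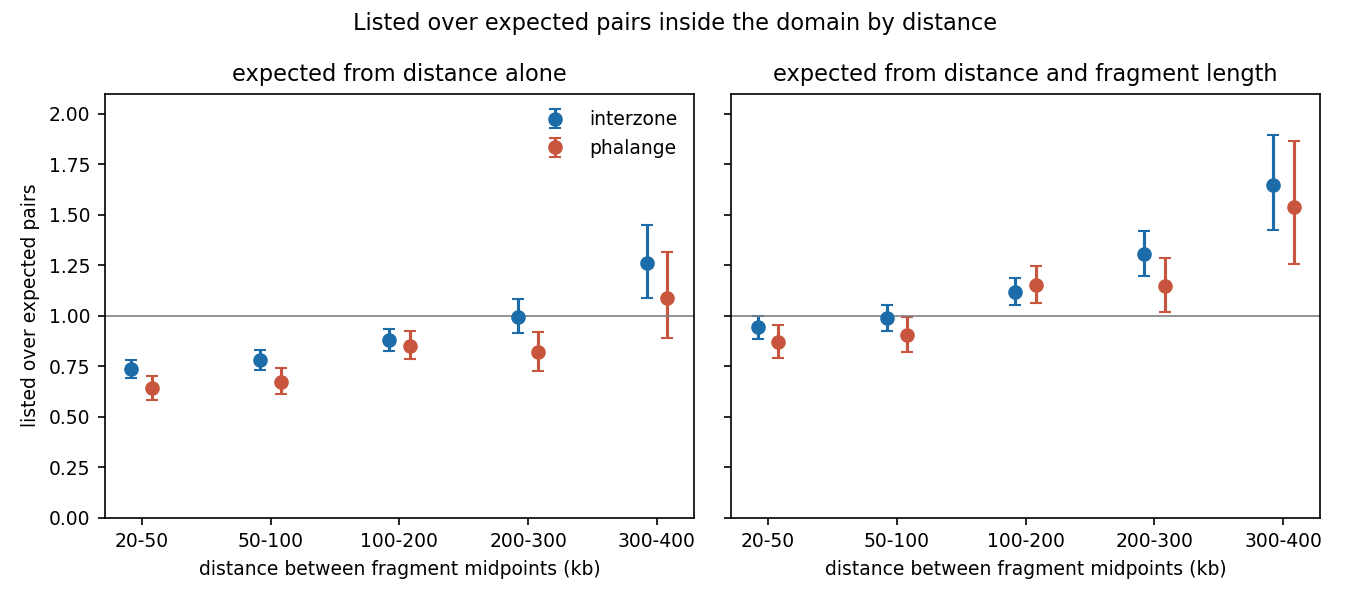
Listed over expected pairs inside the domain (y axis, no unit) by distance between fragment midpoints in kb (x axis), against distance alone (left) and against distance and fragment length (right); points are libraries and bars are 95% exact Poisson intervals. Values at 300 to 400 kb are the highest in both libraries, at 1.26 and 1.09 on the left and 1.65 and 1.54 on the right.

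The high value at 300 to 400 kb came with the last 20 kb of the domain, from 41610001 to 41630000. Pairs with a fragment there numbered 103 for the interzone and 51 for the phalange, which was 1.81 times (1.48 to 2.20) and 1.43 times (1.07 to 1.88) the expectation from distance alone. Without this stretch, 92 and 53 pairs remained, at 0.939 and 0.882 of the expectation. Length-matched, the values with the last 20 kb were 2.47 and 2.15, and those without it were 1.20 and 1.21, with intervals that held 1 in both libraries. Leaving out the first 20 kb instead gave 1.36 and 1.19 against distance alone.

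The partners of the last 20 kb were unevenly spread over the domain, which is described in 8 blocks of 50 kb numbered from its start. With block 1 the last 20 kb had 54 listed pairs for the interzone and 30 for the phalange, 1.81 and 1.57 times the expectation from distance alone. With block 2 it had 61 and 28, or 1.66 and 1.22 times, and in the phalange the interval of the latter, 0.812 to 1.77, held 1. With block 3 the values were 0.781 and 0.744, with block 4 they were 1.36 (1.05 to 1.73) and 0.930 (0.618 to 1.34), and with block 8 itself 0.396 and 0.466. Length-matched, the values were 2.48 and 2.38 with block 1, 2.32 and 1.89 with block 2, 1.30 and 1.39 with block 3, 1.91 and 1.45 with block 4, and 0.676 (0.468 to 0.945) and 0.899 (0.549 to 1.39) with block 8. For the interzone and the phalange, block 5 stood at 1.19 and 0.708 against distance alone and at 1.62 and 1.06 length-matched. Block 6 stood at 1.09 and 0.699, and length-matched at 1.31 and 0.921. Block 7 stood at 0.649 and 0.714, and length-matched at 0.853 and 1.03. Blocks 1 and 2 stood above 1 and block 8 below 1 in both libraries under both expectations. Block 3 in both libraries, and blocks 4, 5 and 7 in the phalange, changed sides of 1 with the expectation.

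With fragments beyond the edge, the last 20 kb had 0.412 of the expected pairs at 20 to 100 kb for the interzone and 0.344 for the phalange, and 0.842 and 0.743 at 100 to 300 kb. Length-matched these were 0.597 and 0.560, and 1.13 and 1.09, so that the values at 100 to 300 kb lay on the other side of 1. At 300 to 400 kb the libraries stood apart, with 89 listed pairs in the interzone at 2.17 times the expectation (1.75 to 2.67) and 27 in the phalange at 1.03 times (0.681 to 1.5). These 2 intervals did not overlap, but they cover counting error only. How often other stretches of the locus set the libraries apart in this way is not given, so no weight is put on it. The pairs are not members of the domain, and the last 20 kb was singled out after the data were seen. Length-matched, the values at 300 to 400 kb were 2.34 (1.88 to 2.88) and 1.17 (0.774 to 1.71).

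Seen in 10 kb bins, contact with the first 300 kb of the domain stood above the expectation in several bins on both sides of the right edge. Length-matched, the bin starting at 41590001 stood at 1.03 for the interzone and 0.928 for the phalange. The bins starting at 41600001, 41610001 and 41620001 stood at 1.46, 1.71 and 1.80 in the interzone and at 1.69, 1.44 and 1.39 in the phalange. Just outside the edge, the bin starting at 41630001 stood at 1.63 and 1.19, and the one starting at 41640001 at 1.30 and 1.34. Further out the values were below 1, at 0.928 and 0.808 in the bin starting at 41650001 and at 0.587 and 0.411 in the bin starting at 41680001. The highest interzone value lay in the last bin of the domain and the highest phalange value 20 kb before it, but the intervals of the libraries overlapped in each of these bins. Against distance alone, the 3 bins from 41600001 stood at 1.62, 1.25 and 1.27 in the interzone and at 1.84, 0.908 and 0.948 in the phalange, so that in the phalange only the first of them was above 1.

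**Figure D3:**
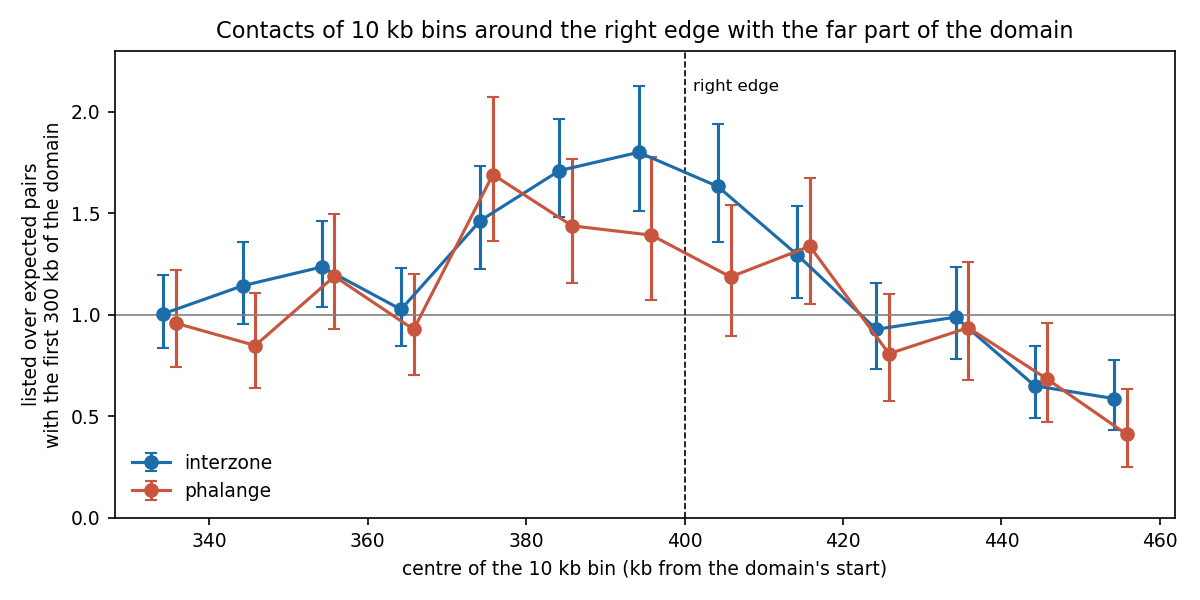
Length-matched listed over expected pairs (y axis, no unit) of each 10 kb bin around the right edge with the first 300 kb of the domain, by the position of the bin's centre in kb from the domain's start (x axis); bars are 95% exact Poisson intervals and the dashed line is the edge. Interzone values are highest from 374.999 to 414.999 kb, reaching 1.80. Phalange values are highest from 374.999 to 394.999 kb and at 414.999 kb, reaching 1.69. Both libraries are lowest at 454.999 kb, at 0.587 and 0.411.

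At the left end, length-matched contact was taken with the last 300 kb of the domain. Outside the edge, the bin starting at 41170001 stood at 0.707 in the interzone (0.517 to 0.943) and 0.902 in the phalange. The bin starting at 41200001 stood at 0.909 in the interzone and 0.488 in the phalange (0.289 to 0.772). The last bin outside, starting at 41220001, stood at 0.826 and 1.02. The first bin inside, starting at 41230001, stood at 1.15 in the interzone (0.925 to 1.42) and 0.889 in the phalange (0.635 to 1.21). The bin starting at 41250001 stood at 1.23 and 1.07, and the bin starting at 41290001 at 1.28 (1.06 to 1.53) and 1.43 (1.13 to 1.79). Only the last of these had intervals above 1 in both libraries, and it lies in block 2, inside the domain and away from its edge.

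Of the 36 pairs of blocks, including each block with itself, 6 were above the expectation from distance alone in both libraries (background over all such block pairs of the locus 43.4%) and 22 were below it in both (background 39%). Length-matched, 17 were above in both (background 36.4%) and 9 below (background 42.1%). The medians were 0.874 for the interzone and 0.798 for the phalange against distance alone, beside locus medians of 1.02 and 1.03, and 1.07 and 1.02 length-matched, beside 0.979 and 0.980. Like the totals, these counts depended on the expectation.

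Ranked against distance alone by the lower of both libraries, the 4 highest block pairs joined the first 100 kb to the later part of the domain. Blocks 2 and 8 had 115 listed pairs for the interzone and 67 for the phalange, 1.23 and 1.11 times the expectation from distance alone and 1.73 and 1.71 times the length-matched one. Blocks 1 and 8 had 95 and 54, at 1.20 and 1.09, and length-matched at 1.66 and 1.65. Blocks 2 and 6 stood at 1.21 and 1.09 against distance alone and at 1.32 and 1.24 length-matched, and blocks 1 and 6 at 1.15 and 1.11, and 1.22 and 1.24. Other pairs were higher by other rankings. In the interzone alone, blocks 6 and 7 stood at 1.22 against distance alone but at 0.967 in the phalange, and length-matched, blocks 4 and 8 stood at 1.59 and 1.34.

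Ranked against distance alone by the higher of both libraries, the 4 lowest block pairs involved block 3, from 41330001 to 41380000, or were block 8 with itself. Block 3 with itself had 28 listed pairs for the interzone and 16 for the phalange, 0.321 and 0.370 of the expectation from distance alone. Blocks 1 and 3 stood at 0.507 and 0.413, blocks 2 and 3 at 0.589 and 0.483, and block 8 with itself at 0.393 and 0.504. Block 2 with itself was also low in the interzone, at 0.487, but stood at 0.715 in the phalange. Block 3 had the shortest fragments of the 8 blocks, with a median length of 185 bp and 30.5% under 100 bp. Length-matched, its inner value was 0.530 and 0.655, the value with block 2 was 0.875 and 0.769, and block 8 with itself stood at 0.646 and 0.922. The first bin of block 3, from 41330001 to 41340000, was the only thinly filled bin of the domain, with 84 distant partners for the interzone and 32 for the phalange.

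**Figure D4:**
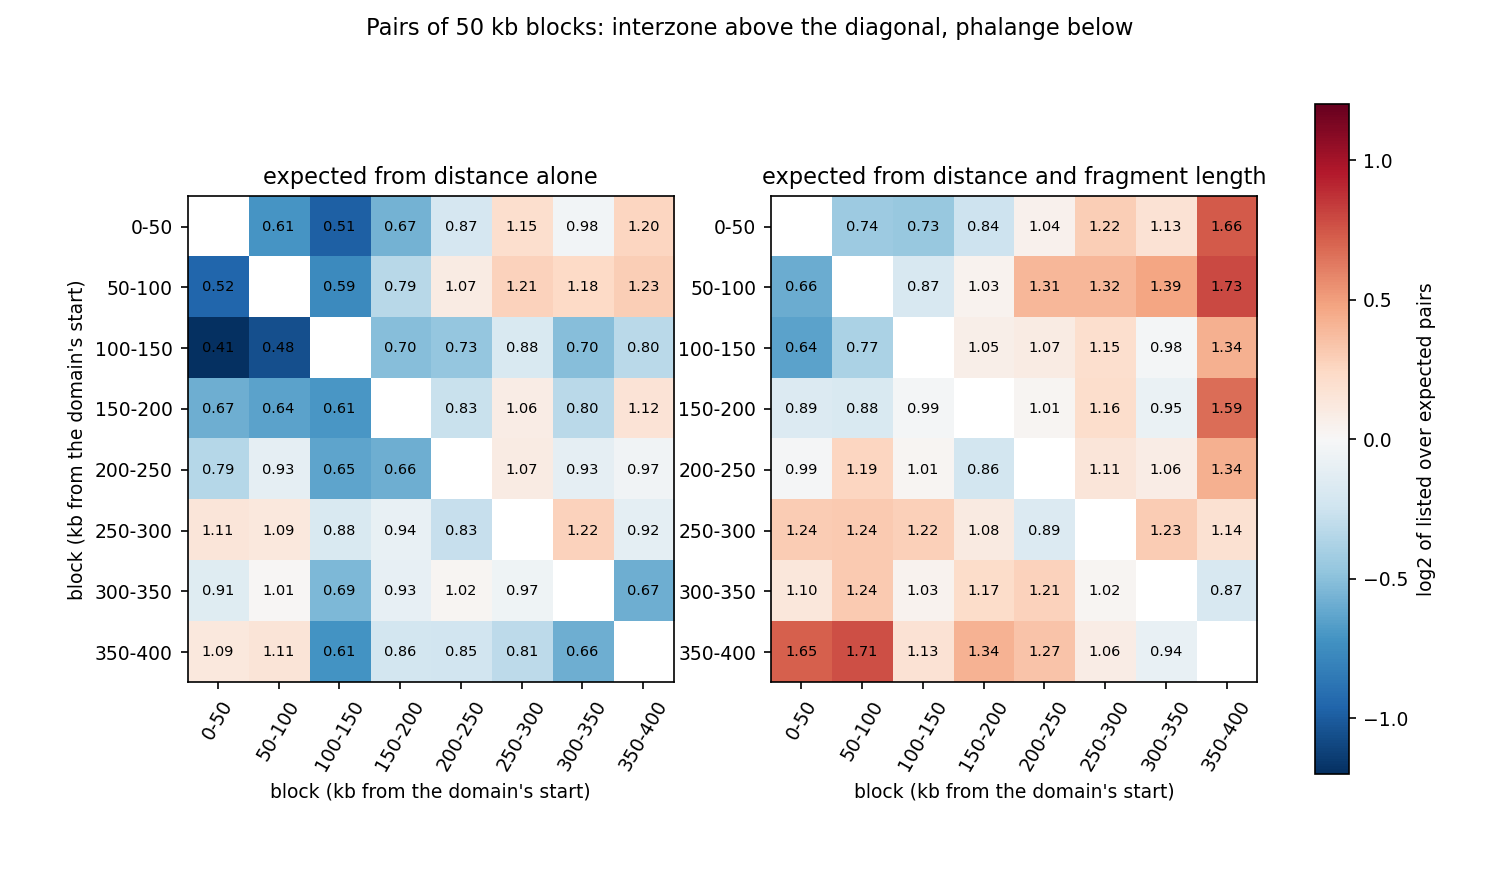
Listed over expected pairs for each pair of 50 kb blocks, with the interzone above the diagonal and the phalange below it, printed in each cell and coloured by its log2; axes give the block's position in kb from the domain's start, and blocks with themselves are left blank. Blocks 2 and 8 stand at 1.23 and 1.11 against distance alone (left) and at 1.73 and 1.71 length-matched (right), and blocks 1 and 3 at 0.507 and 0.413 on the left.

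The 2 libraries ordered the block pairs much alike. Across the 36 block pairs, Pearson's r was 0.876 and Spearman's rho 0.858 against distance alone, and 0.839 and 0.765 length-matched. These are descriptions across block pairs that share fragments, positions and 1 library each. The interzone value was the higher in 30 of 36 block pairs (background 49.6%) and, length-matched, in 25 of 36 (background 50%). Per bin pair it was the higher in 30 of 36 (background 48.8%), but with each fragment's own total in 16 of 36 (background 49%), so the lean to the interzone was absent under that scaling. The counting interval of the ratio of libraries was clear of 1 in 0 of 36 block pairs (background 1.74% with the interzone higher and 3.88% with the phalange higher). Length-matched, it was also clear of 1 in 0 of 36 (background 1.74% with the interzone higher and 2.91% with the phalange higher). The widest ratio was that of block 5 with itself, with 54 listed pairs in the interzone at 1.01 and 17 in the phalange at 0.640, a ratio of 1.58 (0.902 to 2.91). No single pair of blocks therefore separated the libraries beyond counting error under these 2 expectations. Such pairs were also rare over the locus, so their absence is not read as a trait of the domain.

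Smaller units were thinly filled. The 741 pairs of 10 kb bins at 20 kb or more held on average 5.07 listed pairs for the interzone and 2.57 for the phalange. In the rest of the locus the averages were 2.85 and 1.68. These averages were not matched for distance. With distance matched, the domain stood at 1.35 and 1.21 times the expectation per bin pair. Of the 741, 2.16% and 10.8% were empty. Only 10 had at least 20 listed pairs over both libraries, and 2 of these 10 differed 2-fold or more between the libraries relative to expectation (background 13.6%, 8 of 59 over the locus). Both had more in the interzone, whose list is the longer and so weighs more in the sum over both libraries. One joined the bins starting at 41440001 and 41480001, with 17 listed pairs in the interzone, at 1.43 times the expectation from distance alone, and 4 in the phalange, at 0.645. The other joined those starting at 41510001 and 41550001, with 17, at 1.22, and 4, at 0.547. At a minimum of 10 listed pairs, 203 bin pairs qualified, of which 42 were 2-fold or more higher in the interzone (background 14.9%) and 16 in the phalange (background 7.91%).

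Among those 203, 6 bin pairs were named as highest by the lower of both libraries. The bins starting at 41290001 and 41620001, 330 kb apart, had 12 listed pairs in the interzone at 5.64 times the expectation from distance alone (2.91 to 9.84) and 3 in the phalange at 2.37 times (0.489 to 6.94). Those starting at 41250001 and 41620001 had 8 and 5, at 2.23 and 2.16 times. Contact of 41430001 with 41600001 was listed as 6 and 4 pairs, at 3.03 and 3.26 times. The bins starting at 41450001 and 41460001 were also paired with 41600001, at 2.02 and 2.23 times, and at 3.02 and 2.54 times. The bin starting at 41600001 lies outside the last 20 kb described above. How often the 203 bin pairs had an end in these bins was not computed, so no concentration at the right end is read from the 6. The remaining bin pair joined 41230001 to 41480001, with 6 and 4 listed pairs at 2.58 and 2.79 times. In the phalange all 6 rested on 3 to 5 listed pairs, and each interval held 1. In the interzone the lower bounds of the intervals ran from 0.740 to 2.91.

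The widest differences between the libraries rested on few pairs. Between the bins starting at 41310001 and 41350001 there were 14 listed pairs for the interzone and 0 for the phalange, where 8.03 were expected. Between 41420001 and 41620001 there were 10 and 0, and between 41420001 and 41440001 there were 11 and 0. In the other direction, the bins starting at 41480001 and 41600001 had 2 for the interzone and 8 for the phalange, at 0.643 and 4.40 times the expectation. Those starting at 41390001 and 41540001 had 3 and 8, at 0.906 and 3.97 times. Between 41380001 and 41510001 there were 4 and 9, at 0.424 and 1.71 times. These bin pairs were picked for their difference, so the values are descriptions. The minimum of 10 listed pairs was counted over both libraries, so those with 0 in the phalange met it through the interzone list alone. The interzone list is the longer, so this minimum more readily admits bin pairs that are high in the interzone.

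The fragments with the most partners did not lie at the right end. The fragment from 41482271 to 41483966, 1696 bp long, had the most distant partners inside the domain in the interzone, 44 against a length-matched expectation of 19.5, and 19 in the phalange against 13.3. Its interzone partners lay in all 8 blocks, with between 2 and 10 in each. The fragment from 41436386 to 41437896, 1511 bp long, had the most in the phalange, 27 against an expectation of 10.9, and 22 in the interzone against 17.9. The fragments starting at 41425180 and 41430671, 2357 and 1890 bp long, had 23 partners each in the interzone and 22 each in the phalange. Their expectations were 20.2 and 20.3 in the interzone and 13.7 each in the phalange. The next by the lower of both libraries started at 41271497, was 2272 bp long and had 21 and 19, against 16.6 and 11.6. All 5 are 1511 bp or longer, and all but the last lie in the middle of the domain. Only partners inside the domain were counted here. Over the whole locus, the fragment starting at 41271497 had the most interzone partners of the 5, with 88.

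Few distant fragment pairs were listed in both libraries. At 20 kb or more, 64 pairs were in both lists, or 1.70% of the domain's interzone list and 3.36% of its phalange list, beside 2.16% and 3.65% for pairs 20 to 400 kb apart in the rest of the locus. The pair of the fragments 41371968 to 41372287 and 41401988 to 41402634, 30.2 kb apart, had the highest lower signal of the 2 libraries, with 0.000579 for the interzone and 0.000720 for the phalange. The next reached from block 2 to the last 20 kb. It consisted of the 3367 bp fragment from 41291622 to 41294988 and the 2485 bp fragment from 41624941 to 41627425, 332.9 kb apart, and its signal was 0.000430 and 0.000436. It lies in the pair of bins that had 12 and 3 listed pairs. The other 8 of the 10 shared pairs with the highest signal were 23.2 to 274.2 kb apart. By contrast, the strongest distant pair of the interzone list, with a signal of 0.00358, involved a fragment of 93 bp and was absent from the phalange list, and the strongest of the phalange list, at 0.00262, involved a fragment of 45 bp and was absent from the interzone list.

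The insulation score is the mean contact across a position within 100 kb, as log2 over the locus median. The domain was chosen by this score, and the values are given as a description. At the left end, the score from the signal was -0.61 for the interzone and -0.68 for the phalange in the last bin outside, and -0.67 and -0.70 in the first bin inside, where both libraries had their minimum, with prominences of 0.82 and 0.88. At the right end it was -0.12 and -0.47 in the last bin inside and -0.10 and -0.43 in the first bin outside. The right minimum was in the bin starting at 41610001 in the interzone, at -0.13, and in the bin starting at 41620001 in the phalange, at -0.47. Counted by listed pairs, it was in the bin starting at 41630001 in both libraries, at -0.26 and -0.49. The left edge was thus placed alike in both libraries and by both measures, and the right edge within 20 kb.

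Inside the domain, the score was above the locus median over most of its length. The highest values were 0.82 in the interzone, in the bin starting at 41400001, and 0.53 in the phalange, in the bin starting at 41390001. The score takes no account of the number or length of fragments, so it does not by itself show an interior rich in contacts. Contact between the 100 kb on either side of 41430000 was 0.858 and 0.760 of the expectation from distance alone. Length-matched it was 1.09 and 1.02, and per bin pair 1.37 and 1.21. A further minimum from the signal, in the bin starting at 41270001, had a score of -0.43 in both libraries. It followed a single raised bin, starting at 41260001, at -0.16 in the interzone and 0.22 in the phalange. By listed pairs that raised bin stood at only -0.34 and -0.37. By listed pairs the bin starting at 41270001 was a local minimum, at -0.40 and -0.45, with a prominence under 0.1. Shallow minima lay near the middle, in the bin starting at 41490001 in the interzone, with a score of 0.45 and a prominence of 0.25, and in the bins starting at 41430001 and 41500001 in the phalange, with prominences of 0.11 and 0.14.

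**Figure D5:**
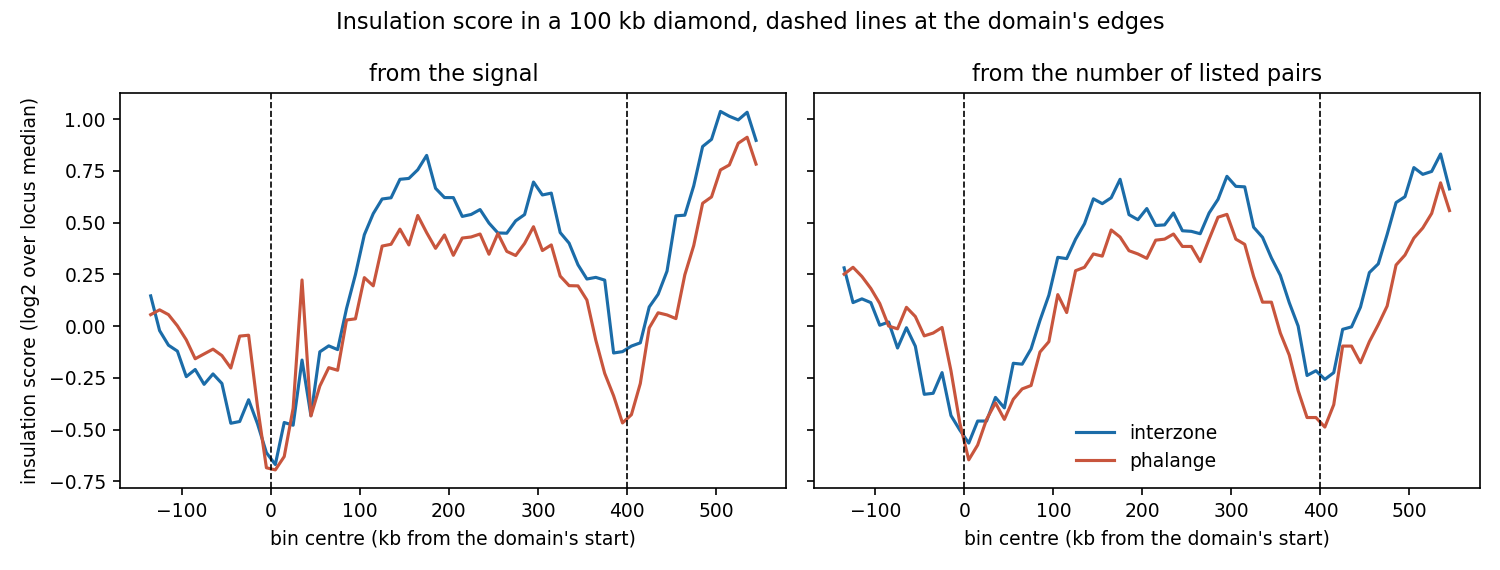
Insulation score in a 100 kb diamond (y axis, log2 over the locus median) by the position of the bin's centre in kb from the domain's start (x axis), from the signal (left) and from the number of listed pairs (right), with dashed lines at the edges. Both libraries are lowest at the left edge, at -0.67 and -0.70 from the signal, and low again around the right edge.

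Contact across fixed points shows the 2 edges beside the interior. Listed pairs at 20 kb or more between the 100 kb on either side stood at 0.723 of the expectation from distance alone for the interzone and 0.742 for the phalange at the left edge, and at 0.442 and 0.378 at the right edge. Length-matched these were 0.709 and 0.732, and 0.590 and 0.549. Per bin pair the order of the edges was the reverse, with 0.681 and 0.706 at the left edge and 0.834 and 0.732 at the right. The insulation score was also lower at the left edge in both libraries. At 41530000, inside the domain, the values were 1.02 and 0.908 against distance alone, and length-matched 1.19 and 1.12. At 41330000 the value from distance alone, 0.629 and 0.534, was below that of the left edge, but length-matched it was 0.873 and 0.791, above both edges.

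The share of contacts kept inside the domain was 51.7% in the interzone (3756 of the listed pairs 20 to 400 kb apart with at least 1 fragment in the domain, Wilson 95% interval 50.6 to 52.9) and 48.4% in the phalange (46.8 to 49.96). Distance alone gave an expected share of 48.0% and 45.9%, and the length-matched expectation gave 45.6% and 42.9%. The observed share was above both in each library. Because the ends were placed at insulation minima of the same lists, this is a description and is not tested. In the phalange, pairs leading out to the left stood at 0.812 of the distance expectation, above the 0.751 of pairs inside, while in the interzone they stood at 0.801, below 0.835. Pairs leading out to the right stood at 0.671 and 0.594. Length-matched, pairs inside stood highest in both libraries, at 1.07 and 1.02, with 0.830 and 0.847 to the left and 0.840 and 0.795 to the right. Per bin pair, pairs to the right stood at 1.10 (1.05 to 1.15) and 0.978, and pairs inside at 1.35 and 1.21. With each fragment's own total, pairs to the right stood at 0.715 and 0.717. The low value to the right therefore depended on the expectation.

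The share kept inside differed along the domain. It was lowest for block 1, at 51.3% for the interzone and 47.9% for the phalange, below the shares of 60.4% and 59.8% expected from distance alone. It was 73.6% and 66.9% for block 5, against expected shares of 67.2% and 64.6%, and 59.3% and 60.3% for block 8, against 51.5% and 51.2%. Block 8 exceeded its expected share in both libraries and block 1 fell short of its own in both, so the 2 ends of the domain differed in how far their contacts stayed inside.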

How the data were processed

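Targeted chromatin capture was measured in 1 pooled interzone library and 1 pooled phalange library of the chick hindlimb digit. Each deposited list gives 1 signal value per pair of fragments, a name taken per the file headers from the interzone list, since the other has no header line. The submitters' processing notes name FastQC, BWA and the build galGal5; the normalization of the signal, duplicate removal and filters are not given in the sources used here. The reciprocal of the signal was whole, within 0.01, for 95.9% of the interzone and 96.6% of the phalange pairs of the domain at 20 kb or more, but the divisor is unknown, no reads were inferred and the depth is unknown. The lists held 100914 and 71542 pairs.

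Fragments of both lists were numbered by start, and pairs of neighbours were left out. Expected numbers came from the whole locus in distance classes of 10 kb, from 20 kb up, and for the length-matched expectation with weights for 20 length classes. Ratios per bin pair used a pseudocount of 0.5, and insulation minima a prominence of at least 0.1. Fold changes of 2 or more stand in for calls, as 1 library per tissue allows no test. Blocks, bin pairs, fragment pairs and fragments were named by rank. They were the 4 highest and 4 lowest block pairs, the 6 bin pairs highest by the lower of both libraries and the 3 widest differences each way. The 10 shared fragment pairs of highest signal and the 5 fragments with the most partners were also named. Block 5 with itself, the last 20 kb of the domain and the strongest fragment pair of each list were singled out after their values were seen. Members, rules and lists were chosen with earlier results of these data known. Alternatives changed the measure, expectation, distance limits, edges, bin size and thresholds. Code was tested on simulated data and run in Python 3.11.15 with NumPy 2.4.6, pandas 2.3.3, SciPy 1.17.1 and Matplotlib 3.10.9.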

Additional observations from a re-analysis of the deposited data

Results flagged for a closer look

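Pairs of neighbouring fragments were left out of every comparison above, and they held most of the signal. Inside the domain they carried 88.3% of all signal in the interzone (956 pairs) and 87.1% in the phalange (957 pairs), beside 87.4% and 87.0% over the locus. They are listed here because they are data that the comparisons did not use. There was no control library to set them against, and what they hold was not tested.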

How the results depend on the processing

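No paired analysis was possible because each tissue had 1 library. The number of listed pairs over expectation at 20 kb or more, 0.835 in the interzone and 0.751 in the phalange, became 0.902 and 0.928 with each fragment's own partner number and 0.867 and 0.787 from 40 kb up, and 0.809 in the interzone with an expectation from outside the domain. Alternatives chosen after seeing the data gave 0.944 and 0.852 with fragments of 200 bp or more, 1.07 and 1.02 length-matched, and 1.35 and 1.21 per bin pair, where the length-matched and the per-bin-pair values lie on the other side of 1. The ratio of libraries, 1.11, was 1.05 length-matched and 0.971 with each fragment's own partner number, on the other side of 1. The share kept inside, 51.7% and 48.4%, was 73.9% and 71.7% up to 200 kb, 46.5% and 44.2% from 40 kb, 46.8% and 43.9% with edges moved 20 kb inwards, and 53.8% and 50.2% with edges moved outwards. The bin pairs past 2-fold, 2 of 10, became 13 of 160 with bins of 20 kb and 58 of 203 at a minimum of 10 listed pairs. They were 4 of 10 by summed signal, 1 of 10 length-matched, and 0 of 1 with the interzone list thinned to the phalange number. The share over the locus was 22.8% at a minimum of 10 listed pairs. It was not computed for the other alternatives, so their counts cannot be compared with the locus. At 300 to 400 kb, the values of 1.26 and 1.09 were 1.65 and 1.54 length-matched, 2.15 and 1.84 per bin pair, 1.53 in the interzone with fragments of 200 bp or more, 1.36 in the phalange with each fragment's own partner number, and 0.939 and 0.882 without the last 20 kb; these settings too were chosen after seeing the data. The cause of these shifts was not tested. The other alternatives kept their direction and stayed within the counting interval of the value reported. A 1.5-fold threshold gave 3 of 10 bin pairs, also without a share over the locus beside it. Depth is unknown, and single bin pairs hold few listed pairs.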
